A study of Mus musculus with 8 samples.

Results

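The 10 integrin genes Itga4, Itga5, Itga6, Itgal, Itgam, Itgax, Itgb1, Itgb2, Itgb3 and Itgb7 were examined in bone marrow cells sorted as leukemic stem cells (LSCs) from mice with chronic myeloid leukemia (CML). They were chosen by symbol as integrins of marrow homing and of myeloid cells, and they are 10 of the 15576 genes in the bulk RNA-seq count table. All libraries came from bone marrow cells of double transgenic C57BL/6 mice (BCR-ABL×SCL-tTA), in which the SCL promoter drives the tetracycline transactivator so that stem cells express BCR-ABL once tetracycline is withdrawn. The CML group (4 libraries) was from untreated leukemic mice, and the CML-TKI group (4 libraries) from leukemic mice given imatinib, a tyrosine kinase inhibitor of BCR-ABL, by gavage on alternate days for 4 weeks, at 400 mg/kg per the labels, while the study's text also gives a lower dose for these cells. The ages of the mice are not given in the sources used here. The labels give a Lin-, Sca1+, cKit+, Flt3-, CD150- and CD48+ sort for both groups, whereas the study's text defines LSCs as CD48- and CD150+. The study set the groups side by side to ask what distinguishes cells that persist under imatinib.

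Integrins are cell surface receptors made of an alpha and a beta subunit, and the pair decides which ligand is bound. Hematopoietic stem and progenitor cells are known to use α4β1, α5β1 and α6β1 to hold on to VCAM-1, fibronectin and laminins in the marrow, and α4β7 to bind MAdCAM-1. The β2 integrins, built from Itgb2 with an alpha chain such as Itgal, Itgam or Itgax, are restricted to leukocytes. They carry neutrophils and monocytes through vessel walls by binding ICAMs. Integrins stay bent and inactive until talin and kindlin bind the beta tail, and bound integrins then signal inward through focal adhesion and Src family kinases.

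Total counts per library ranged from 4939645 to 8620102 in the CML group and from 1041554 to 5104272 in the CML-TKI group, and 3 counts, the smallest level read as detected, correspond to 0.409 to 0.580 CPM in CML libraries and up to 3.29 CPM in CML-TKI 3. The first principal component held 52.5% of the variance and placed CML-TKI 1 at -19.2, nearer to the CML libraries (-74.4 to -69.3) than the other CML-TKI libraries (70.0 to 118.8). CML 1, 2 and 3 were far more alike than any other libraries, and their biological coefficient of variation was 11%, compared with 28% over all 4 CML and 69.1% over the CML-TKI libraries. The labels do not say that the libraries came from separate mice, so p-values measure only the spread between these libraries, which may be technical. Against the labelled sort, Slamf1 (CD150) was at 29.01 to 37.7 CPM in CML and 0.62 to 6.58 CPM in CML-TKI libraries, Cd48 at 3.87 to 6.40 and 39.9 to 178.2 CPM, and Kit at 764.0 to 1023 and 194.3 to 290.4 CPM. Ly6a (Sca1) was at 33.2 to 38.5 CPM in CML and at 44.3, 9.61, 8.77 and 1.56 CPM in CML-TKI 1 to 4, and Flt3 at 15.7 to 17.2 CPM in CML and 13.7, 7.75, 18.6 and 63.2 CPM in CML-TKI 1 to 4. The CML libraries held Slamf1 but little Cd48 transcript, and the CML-TKI libraries the opposite. By Slamf1 and Cd48 the CML libraries went against the labelled sort and the CML-TKI libraries against the study's definition of LSCs. Ly6a was low in CML-TKI 2, 3 and 4, and Flt3 was high in CML-TKI 4. From transcripts alone, a difference in the sorted cells cannot be told apart from the treatment in any result here.

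Of the 9 integrin genes with enough counts to be tested, 4 were higher in CML-TKI libraries, none was lower and 5 did not pass the threshold (edgeR quasi-likelihood test, adjusted p under 0.05). The 4 genes that rose were Itgal, Itgam, Itgb2 and Itgb7, by 3.17-fold to 12.5-fold. Over all 11937 genes tested, 10.2% passed in either direction, 6.29% higher and 3.93% lower. At an unadjusted p under 0.05, where 25.7% of all genes passed, none of the 9 was lower, DESeq2 called none lower and limma-voom called 1 (Itga6). The median log2 fold change was 0.66 over the 9 genes and 0 over all genes. The former is the value of Itgb1, which did not pass and was at -0.03 without CML-TKI 1. Groups did not overlap for the 4 genes that rose and, in the lower direction, for Itga5, against 10.3% of all genes that were higher without overlap and 13.1% that were lower.

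**Figure D1:**
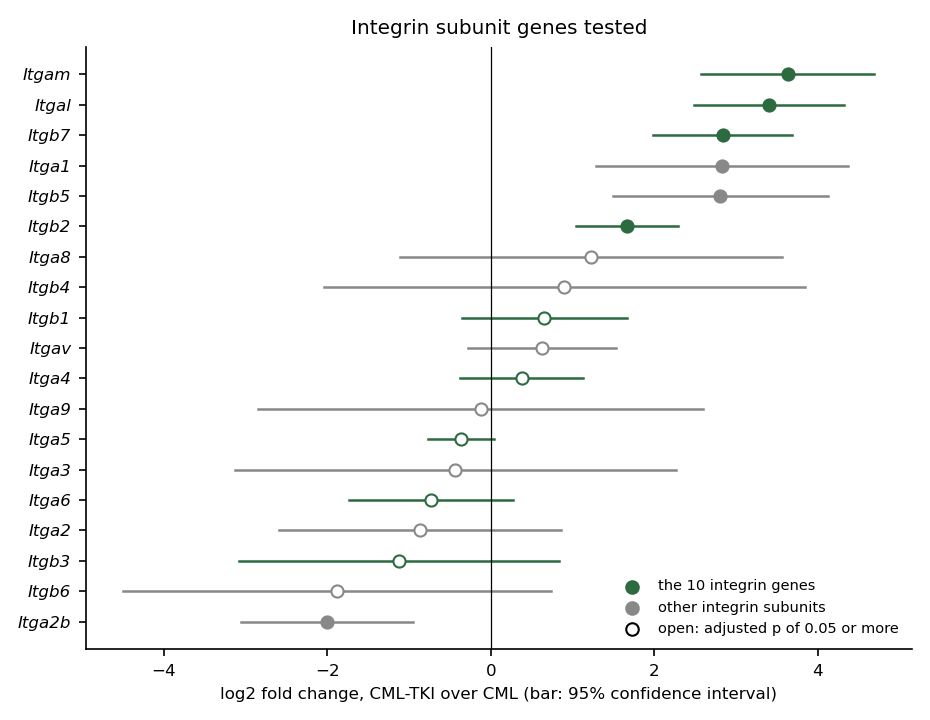
Log2 fold change (CML-TKI over CML, x axis) of each integrin subunit gene tested, with its 95% confidence interval as a bar; green marks the 10 integrin genes, grey the other subunits, and filled points an adjusted p under 0.05. Itgam, Itgal, Itgb7 and Itgb2 lie to the right of 0, from 1.66 to 3.64, and Itga2b lies to the left at -2.01.

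Of the β2 integrin genes among the 10, Itgal, Itgam and Itgb2 rose, and Itgax was not tested. Itgad, which starts 23.3 kb after Itgax and is not among the 10, was not tested either. It had 0, 2, 0 and 3 counts in CML 1, 2, 3 and 5, and 2, 6, 25 and 37 counts in CML-TKI 1 to 4. Itgal encodes the αL chain of LFA-1, which binds ICAM-1, and lies on the plus strand of chromosome 7 (GRCm38, chr7:127296139-127335137). Itgal was at 19.6, 16.4, 20.1 and 26.8 CPM in CML 1, 2, 3 and 5, and at 77.1, 252.6, 301.4 and 253.2 CPM in CML-TKI 1 to 4. All CML-TKI libraries lay above all CML libraries, CML-TKI 1 by the smallest margin. Itgal was thus 10.6-fold higher in CML-TKI libraries (221.1 ± 98.7 against 20.7 ± 4.37 CPM, SD, n = 4 each), with a log2 fold change of 3.41 (SE 0.41, edgeR adjusted p = 0.00126). Leaving out any 1 library gave 3.24 to 3.69, with an adjusted p of at most 0.00861.

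Itgam encodes αM (CD11b), the chain of the complement receptor Mac-1 that is used as a surface marker of granulocytes and monocytes, and lies 727.5 kb beyond Itgal (chr7:128062640-128118491, plus strand). Itgam was at 10.5, 10.8, 17.4 and 10.4 CPM in CML 1, 2, 3 and 5, and at 44.1, 202.98, 207.1 and 159.8 CPM in CML-TKI 1 to 4. The groups did not overlap, and CML-TKI 1 was again the lowest of its group. Itgam was 12.5-fold higher in CML-TKI libraries (153.5 ± 76.0 against 12.3 ± 3.41 CPM, SD, n = 4 each), the log2 fold change being 3.64 (SE 0.47, adjusted p = 0.00182) and 3.46 to 3.95 with any 1 library left out. The annotated gene Gm49368 overlaps Itgam on the same strand, and reads shared between them cannot be told apart.

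Itgax encodes αX (CD11c), a marker of dendritic cells and some macrophages, and starts 11 kb after Itgam (chr7:128129526-128150657). Itgax had 0, 0, 1 and 0 counts in CML 1, 2, 3 and 5, and 1, 0, 13 and 21 counts in CML-TKI 1 to 4. It was above the floor of 3 counts only in CML-TKI 3 and 4 and was removed by the filter on low counts, so it has no test here. Without the filter edgeR gave an adjusted p of 0.0876, and DESeq2 gave 0.0134. The summed dendritic cell markers were at 33.4 to 48.5 CPM in CML libraries and 7.98, 1.86, 95.4 and 29.7 CPM in CML-TKI 1 to 4. In CML-TKI 3, H2-Aa made up 69.0 CPM of this sum. CML-TKI 3 was highest in Itgax and in the dendritic cell sum, and also in the B cell, T and NK cell and erythroid sums. The part of any of these cells in the level of Itgax was not tested.

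Itgb2 encodes β2 (CD18), the chain that αL, αM and αX share, and lies on chromosome 10 (chr10:77530329-77565708, plus strand). Itgb2 was at 46.6, 44.97, 46.96 and 59.8 CPM in CML 1, 2, 3 and 5, and at 87.4, 159.6, 210.4 and 173.3 CPM in CML-TKI 1 to 4. Every CML-TKI library was above every CML library. The rise was smaller than that of its alpha partners, 3.17-fold (157.7 ± 51.6 against 49.6 ± 6.87 CPM, SD, n = 4 each), with a log2 fold change of 1.66 (95% confidence interval 1.04 to 2.29, adjusted p = 0.00608). The intervals of Itgal (2.49 to 4.33) and Itgam (2.58 to 4.70) lay above that of Itgb2. The difference between the fold changes was not tested. Per kb of transcript, Itgal and Itgam together amounted to 0.36 to 0.478 of the level of Itgb2 in CML and to 0.822 to 1.71 of it in CML-TKI libraries, without overlap.

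Itgb7 encodes β7, which pairs with α4 to bind MAdCAM-1 and VCAM-1 and is known for lymphocyte homing to the gut, and lies on the minus strand of chromosome 15 (chr15:102215994-102233405). Itgb7 was at 17.3, 17.2, 14.1 and 22 CPM in CML 1, 2, 3 and 5, and at 50.9, 124.6, 144.7 and 186.8 CPM in CML-TKI 1 to 4. The groups did not overlap, and CML-TKI 1 was the lowest of its group here too. Itgb7 was 7.15-fold higher in CML-TKI libraries (126.7 ± 56.8 against 17.6 ± 3.26 CPM, SD, n = 4 each), with a log2 fold change of 2.84 (SE 0.38, adjusted p = 0.0021) and 2.58 to 3.10 with any 1 library left out. When CML 1, 2 and 3 were summed to 1 library, the log2 fold changes were 3.25 for Itgal, 3.70 for Itgam, 1.545 for Itgb2 and 2.70 for Itgb7, and none of the 4 passed (adjusted p = 0.0551, 0.0525, 0.159 and 0.0724).

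**Figure D2:**
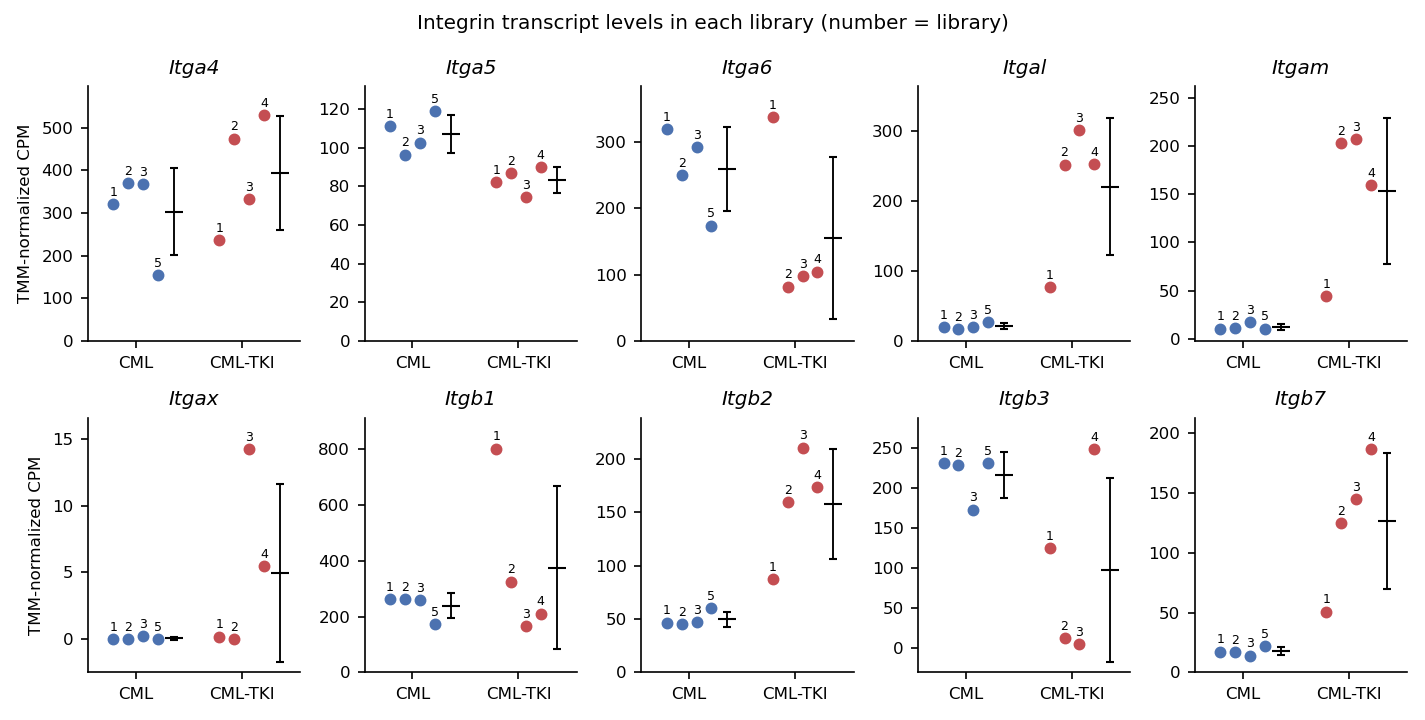
TMM-normalized CPM (y axis, a separate scale for each gene) of the 10 integrin genes in each library; points are libraries with their numbers, and the black line and bar give the mean and SD of a group. Itgal, Itgam, Itgb2 and Itgb7 were higher in all 4 CML-TKI libraries, and CML-TKI 1 was apart from the other 3 in Itga6 (338 CPM) and Itgb1 (802 CPM).

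Granulocyte and monocyte markers were higher together with these 4 genes. Of 10 granulocyte markers tested, 9 passed and all 9 were higher in CML-TKI, and the summed level of the list was 152 to 256 CPM in CML and 1453 to 8491 CPM in CML-TKI libraries. The log2 fold changes of the 10 ranged from 2.37 to 8.26. Ltf did not pass (2.37, adjusted p = 0.101) and Ly6g, at 0.76 to 7.55 CPM in CML-TKI libraries, was not tested. Among the tested markers, groups overlapped for Camp, Ltf, Ngp and S100a8. In CML-TKI 1 these were at 8.36, 7.98, 19.2 and 67.0 CPM. Their CML ranges were 6.54 to 20.8, 22.1 to 54.1, 16.9 to 34.8 and 37.2 to 70.3 CPM. Most of the granulocyte sum in CML-TKI 1 was Mpo, Prtn3 and Elane, at 695.0, 279.2 and 220.5 CPM. All 8 monocyte and macrophage markers were higher, with sums of 230 to 298 and 1138 to 5546 CPM. No marker of these lists was at 0 in all CML libraries, and in each the sum was lowest in CML-TKI 1 among the CML-TKI libraries, as Itgal, Itgam, Itgb2 and Itgb7 were. HSC markers went the other way, with 3 of 7 lower and none higher, and sums of 1045 to 1273 in CML and 25.4 to 306.7 CPM in CML-TKI libraries. Endothelial markers were also lower in 2 of 5 (Cdh5 and Tek), with sums of 156.5 to 288.1 and 56.2 to 120.6 CPM. The part of other cells in the integrin differences was not tested, and in bulk libraries more cells of a type and more RNA per cell cannot be told apart. The B cell sum was 18.0 to 23.4 CPM in CML and 16.9 to 20.8 CPM in CML-TKI libraries other than CML-TKI 3, where it was 287.1 CPM. The T and NK cell sum was 11.2 to 26.4 CPM in CML libraries, with Cd3e, Cd3g, Cd8a and Klrd1 at 0 in all of them, and 13.9, 40.9, 163.3 and 81.4 CPM in CML-TKI 1 to 4. Basophil and mast cell markers summed to 2.06 to 4.05 CPM in CML libraries. In CML-TKI 1 to 4 they summed to 118.1, 204.2, 4.38 and 1164 CPM. Itgb7 and the granulocyte sum were also highest in CML-TKI 4, but in CML-TKI 3 Itgb7 was at 144.7 CPM. Erythroid markers stood apart in CML-TKI 3, with a sum of 23868 CPM against 34.8 to 243.8 CPM in the other libraries.

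RefSeq promoter windows (250 bases before to 50 after a transcript start, GRCm38.p6) were found for 6 of the 10 genes. They are shown for Itgam and Itgb7, which rose, and for Itga4, the alpha partner of β7, which did not pass. Capitals mark GAGGAA or its reverse complement TTCCTC, the core that the myeloid factor PU.1 recognizes. The windows of Itgam and Itga4 are placed on the annotated gene start, and that of Itgb7 on a transcript start inside the gene.
Itgam (chr7:128062390-128062689, plus strand): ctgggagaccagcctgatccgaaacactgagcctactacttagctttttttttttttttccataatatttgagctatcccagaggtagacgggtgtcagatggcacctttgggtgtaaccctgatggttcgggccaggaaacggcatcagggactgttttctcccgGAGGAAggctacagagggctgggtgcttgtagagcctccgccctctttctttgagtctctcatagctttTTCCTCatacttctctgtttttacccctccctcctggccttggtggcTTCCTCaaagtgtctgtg
Itgb7 (chr15:102231886-102232185, minus strand): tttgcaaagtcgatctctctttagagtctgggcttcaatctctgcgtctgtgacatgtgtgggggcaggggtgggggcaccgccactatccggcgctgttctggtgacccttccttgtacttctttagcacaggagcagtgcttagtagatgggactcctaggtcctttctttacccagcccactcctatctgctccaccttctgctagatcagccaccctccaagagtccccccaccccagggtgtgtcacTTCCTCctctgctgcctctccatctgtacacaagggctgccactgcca
Itga4 (chr2:79255176-79255475, plus strand): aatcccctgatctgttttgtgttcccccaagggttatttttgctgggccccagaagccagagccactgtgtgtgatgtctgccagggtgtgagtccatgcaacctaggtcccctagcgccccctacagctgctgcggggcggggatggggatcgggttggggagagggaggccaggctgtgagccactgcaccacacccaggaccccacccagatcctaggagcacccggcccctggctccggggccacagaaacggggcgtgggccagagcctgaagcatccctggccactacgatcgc
The Itgam window held 3 matches, with first bases at -84, -15 and 33 from the start, and the Itgb7 window 1 match at 3. The Itga4 and Itgax windows held none, and those of Itgb1 and Itga5, which did not pass either, held 1 each. On both strands, 28.3% of 32851 promoter windows of this length hold GAGGAA. The GC box GGGCGG, found in 35.7% of windows, was in those of Itga4, Itgam, Itgb1 and Itga5 and shared no base with a GAGGAA match, and TATAAA, found in 13.6%, was in none of the 6 windows.

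The α4 chain, the partner of β7, did not pass the test. Itga4, whose product pairs with β1 as VLA-4 to hold stem cells on VCAM-1 and fibronectin, lies at chr2:79255426-79333114 on the plus strand and overlaps Cerkl on the other strand. Since the counting is not stated to use strand, reads from any bases that are exons of both genes cannot be told apart. Whether the exons of Itga4 and Cerkl overlap was not examined. Itga4 was at 320.4, 369.6, 368.5 and 154.8 CPM in CML 1, 2, 3 and 5, and at 236.8, 474.8, 333.2 and 530.0 CPM in CML-TKI 1 to 4. CML 5 was the lowest and CML-TKI 1 the next, and the groups overlapped. The log2 fold change was 0.38 (95% confidence interval -0.38 to 1.13, adjusted p = 0.529), with 0.15 without CML 5 and 0.55 without CML-TKI 1.

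The β1 chain, which α4, α5 and α6 can all join, varied more within the CML-TKI group than between groups. Itgb1 (chr8:128685654-128733579, plus strand) was at 263.8, 261.5, 258.7 and 173.2 CPM in CML 1, 2, 3 and 5, and at 802.5, 324.8, 165.5 and 211.0 CPM in CML-TKI 1 to 4. CML-TKI 1 and 2 lay above all CML libraries and CML-TKI 3 below all of them. The log2 fold change was 0.66 (95% confidence interval -0.35 to 1.66, adjusted p = 0.400), and it was -0.03 without CML-TKI 1 (adjusted p = 0.949). The same library was high in Itgav, the fibronectin and vitronectin receptor chain, at 163.3 CPM against 44.96 to 56.2 CPM in the other 7, and in the laminin chains Lama4 and Lamb1, at 257.0 and 312.2 CPM against at most 19.7 and 9.86 CPM elsewhere.

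Itga6 encodes α6, a laminin receptor chain that is used to sort stem and progenitor cells (chr2:71786886-71858427, plus strand). Itga6 was at 319.1, 249.8, 292.6 and 174.0 CPM in CML 1, 2, 3 and 5, and at 337.7, 81.8, 97.5 and 104.3 CPM in CML-TKI 1 to 4. CML-TKI 2, 3 and 4 lay below every CML library, and CML-TKI 1 above every one. With all libraries the log2 fold change was -0.73 (95% confidence interval -1.73 to 0.27, adjusted p = 0.347). Without CML-TKI 1 it was -1.46 with an adjusted p of 0.00469, and limma-voom with sample quality weights, which gives less weight to libraries that stand apart, gave -1.26 with an adjusted p of 0.0108.

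Itga5 encodes α5, which with β1 forms the main fibronectin receptor (chr15:103344286-103366791, minus strand). Itga5 was at 111.0, 96.3, 102.6 and 118.8 CPM in CML 1, 2, 3 and 5, and at 82.1, 86.8, 74.5 and 90.0 CPM in CML-TKI 1 to 4. The CML-TKI libraries were all below the CML libraries, by a small margin, and relative to their mean they were less spread than those of the other 9 genes. The log2 fold change was -0.36 (95% confidence interval -0.77 to 0.05, adjusted p = 0.248), which did not pass.

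Itgb3 encodes β3, the partner of αIIb on platelets and megakaryocytes and of αv on other cells (chr11:104608000-104670476, plus strand). Itgb3 was at 230.8, 228.9, 172.9 and 231.1 CPM in CML 1, 2, 3 and 5, and at 124.6, 12.1, 4.38 and 248.7 CPM in CML-TKI 1 to 4. CML-TKI 4 was above every CML library, whereas the other CML-TKI libraries were below all of them. The log2 fold change was -1.12 (95% confidence interval -3.08 to 0.83, adjusted p = 0.463). It ranged from -2.14 without CML-TKI 4 to -0.74 without CML-TKI 3 (-0.76 without CML-TKI 2), and none of these fits passed. Its partner Itga2b (αIIb), which is also expressed in stem cells, was lower in CML-TKI libraries, at 320.2 to 512.5 CPM in CML and 40.9 to 224.3 CPM in CML-TKI libraries (log2 fold change -2.01, SE 0.47, adjusted p = 0.0263). The summed megakaryocyte markers, a list that holds Itga2b, were at 1202 to 1446 CPM in CML and 216.3, 48.7, 116.2 and 584.4 CPM in CML-TKI 1 to 4, so that CML-TKI 4 was the highest of its group but below every CML library, unlike for Itgb3.

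Levels of different genes were compared as CPM per kb of transcript. In CML libraries the order of the 10 genes was Itgb1 (62.7 ± 11.6 CPM per kb, SD, n = 4), Itga6 (60.1 ± 14.7), Itgb3 (37.3 ± 4.96), Itga4 (31.1 ± 10.4), Itga5 (24.5 ± 2.24), Itgb2 (16.7 ± 2.31), Itgb7 (6.58 ± 1.21), Itgal (3.97 ± 0.84), Itgam (2.62 ± 0.73) and Itgax (0.012 ± 0.024). Itgb1 and Itga6 differed by less than the larger of their SDs, as did Itgb3 and Itga4, and Itga4 and Itga5, while every other step down this order was larger than both SDs. In CML-TKI libraries the order was Itgb1 (98.5 ± 76.6), Itgb2 (53.1 ± 17.4), Itgb7 (47.2 ± 21.2), Itgal (42.3 ± 18.9), Itga4 (40.3 ± 13.7), Itga6 (36.0 ± 28.3), Itgam (32.8 ± 16.2), Itga5 (19.02 ± 1.54), Itgb3 (16.8 ± 19.9) and Itgax (1.23 ± 1.65). Each step down that order was less than the larger SD of the pair, so neighbours did not differ beyond their spread. Lengths are those of the longest annotated transcript, so these levels carry the uncertainty of which transcript the cells make.

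As a share of all beta subunit transcripts, counted per kb, Itgb7 was 4.33% to 7.08% in CML libraries and 6.43%, 23.4%, 30.7% and 30.5% in CML-TKI 1 to 4. Itgb2 was 11.5% to 17.4% in CML libraries and 9.97%, 27.1%, 40.3% and 25.5% in CML-TKI 1 to 4. Neither share was above the CML range in CML-TKI 1, where Itgb1 alone was 71.3%, and both were above it in the other 3 CML-TKI libraries. The ratio of Itgb7 to Itgb1, the chains that compete for α4, was 0.0775 to 0.181 in CML libraries and 0.0902, 0.545, 1.24 and 1.26 in CML-TKI 1 to 4, again with CML-TKI 1 inside the CML range. Among alpha subunits, Itga2b held the most in every CML library (37.7% to 58.9%) and 5.77% to 24.5% in CML-TKI libraries. Itgal was 1.203% to 2.03% in CML libraries and 7.31%, 23.4%, 24.7% and 18.2% in CML-TKI 1 to 4. Itgam was 0.834% to 1.503% in CML libraries and 4.66%, 21.02%, 18.9% and 12.8% in CML-TKI 1 to 4. These 3 alpha shares did not overlap between groups. The shares are a description, without a test.

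**Figure D3:**
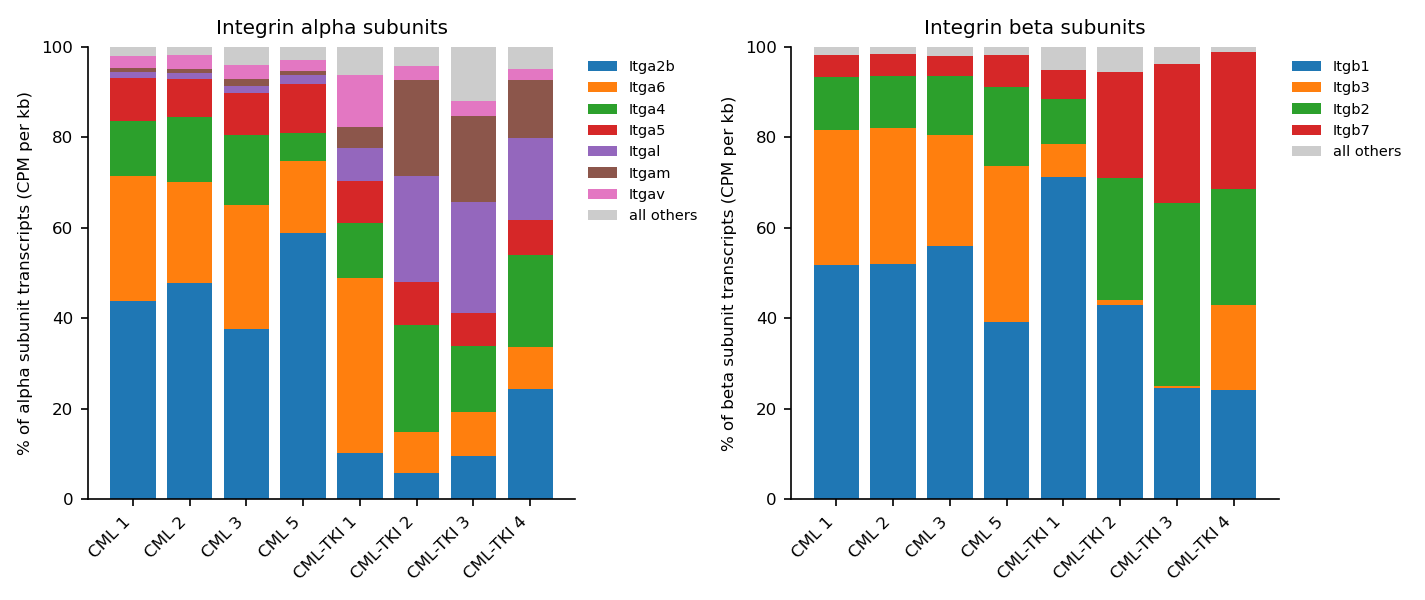
Share (%, y axis) of each subunit among the alpha (left) and beta (right) integrin transcripts of a library, from CPM per kb, with 1 stacked bar per library. Itga2b and Itgb1 take the largest parts in the CML libraries, and Itgal, Itgam, Itgb2 and Itgb7 take larger parts in CML-TKI 2, 3 and 4.

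The genes whose log2 CPM was most like that of an integrin gene over the 8 libraries were found by Pearson's r. A difference between the groups alone gives a high r here, so these values only describe the 8 libraries and carry no p. Of 9305 other genes whose mean log2 CPM was 3 or more, those most like Itgal were Apba1 (r = 0.998), Dtx4 (r = 0.997) and Hk3 (r = 0.995), the last a hexokinase of myeloid cells. Their log2 fold changes were 3.22, 4.51 and 3.83. Those most like Itga5 were Fam53c (r = 0.991), Tprgl (r = 0.978) and Tmem250-ps (r = 0.976), with log2 fold changes of -0.75, -0.58 and -1.18.

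Of the other integrin subunits, 10 were tested, of which 2 were higher, 1 was lower and 7 did not pass (median log2 fold change 0.26). Beside this and the lists below, 6.29% of all genes tested passed as higher and 3.93% as lower. The collagen receptor chain Itga1 was at 1.09, 2.70, 15.8 and 7.01 CPM in CML and at 31.7, 57.6, 50.4 and 49.96 CPM in CML-TKI libraries (log2 fold change 2.83, adjusted p = 0.030). Itgb5, a partner of αv in vitronectin binding, was at 1.63 to 5.02 CPM in CML and 7.55 to 35.3 CPM in CML-TKI libraries (2.81, adjusted p = 0.016). The gene that was lower was Itga2b, described above.

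Of 13 genes tested that switch integrins on, 2 were higher, 1 was lower and 10 did not pass, with a median log2 fold change of 0.001. Fermt3, the kindlin of blood cells, which binds β1, β2 and β3 tails, was at 413.2, 401.5, 395.6 and 611.4 CPM in CML 1, 2, 3 and 5 and at 132.2, 182.2, 144.7 and 248.2 CPM in CML-TKI 1 to 4. It was lower in every CML-TKI library, opposite to Itgb2 (log2 fold change -1.36, SE 0.26, adjusted p = 0.0112). Tln1, the main talin of blood cells, had a log2 fold change of -0.46 (adjusted p = 0.235), and the low Tln2 (0.409 to 3.67 CPM in CML, 4.16 to 43.1 CPM in CML-TKI) rose by 3.41 (adjusted p = 0.0417). Raph1, a relative of the Rap1 effector RIAM, rose by 2.29 (adjusted p = 0.0206). Of 6 genes that hold integrins inactive, Flna, whose product filamin A competes with talin for beta tails, was higher (1034 to 1245 CPM in CML, 2168 to 3282 CPM in CML-TKI, log2 fold change 1.24, adjusted p = 0.00412) and 5 did not pass (median 0.25).

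Downstream of integrins, 4 of 17 adhesion complex and signaling genes were higher, none was lower and 13 did not pass (median 0.18). They were the Src family kinases Fgr (log2 fold change 3.03, adjusted p = 0.0142) and Lyn (1.26, adjusted p = 0.0435), which act downstream of β2 integrins in myeloid cells, the docking protein Nedd9 (2.14, adjusted p = 0.0036) and Parvb (2.01, adjusted p = 0.0258). Fgr was at 2.31 to 10.4 CPM in CML and at 15.8, 47.1, 73.4 and 29.4 CPM in CML-TKI 1 to 4, so CML-TKI 1 was lowest, as for Itgam. Nedd9 was instead highest in CML-TKI 1 (97.6 CPM) and at 35.4 to 68.0 CPM in CML-TKI 2 to 4, against 13.5 to 16.2 CPM in CML.

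Among 14 ligand genes tested, only Fn1 passed (median 0.57). Fn1 encodes fibronectin, the ligand of α5β1 and α4β1, and was at 9.94, 15.1, 15.5 and 9.76 CPM in CML 1, 2, 3 and 5 and at 91.2, 433.2, 360.6 and 1012 CPM in CML-TKI 1 to 4. All CML-TKI libraries were above all CML libraries, 37.9-fold in the fit (log2 fold change 5.24, SE 0.67, adjusted p = 0.00166). The ligand Vcam1 had a log2 fold change of 1.401 (adjusted p = 0.172) and Icam1 of -0.62 (adjusted p = 0.316).

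Of 9 other homing receptors, 2 were higher, none was lower and 7 did not pass (median -0.04). Cxcr4, the receptor that retains stem cells in the marrow, and Selplg, a selectin ligand, passed with overlapping groups, CML-TKI 1 lying within the CML range of both (109.8 against 76.1 to 128.8 CPM, and 78.4 against 60.6 to 78.5 CPM). Their log2 fold changes were 1.90 (adjusted p = 0.0208) and 1.44 (adjusted p = 0.027). Among 9 genes, Cd47 and tetraspanins, membrane partners of integrins, the leukocyte tetraspanin Cd53 was higher (4.97, adjusted p = 6.8e-04), Cd81 (-1.54, adjusted p = 0.0176) and Tspan32 (-1.50, adjusted p = 0.00846) were lower, and 6 did not pass (median -0.01).

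**Figure D4:**
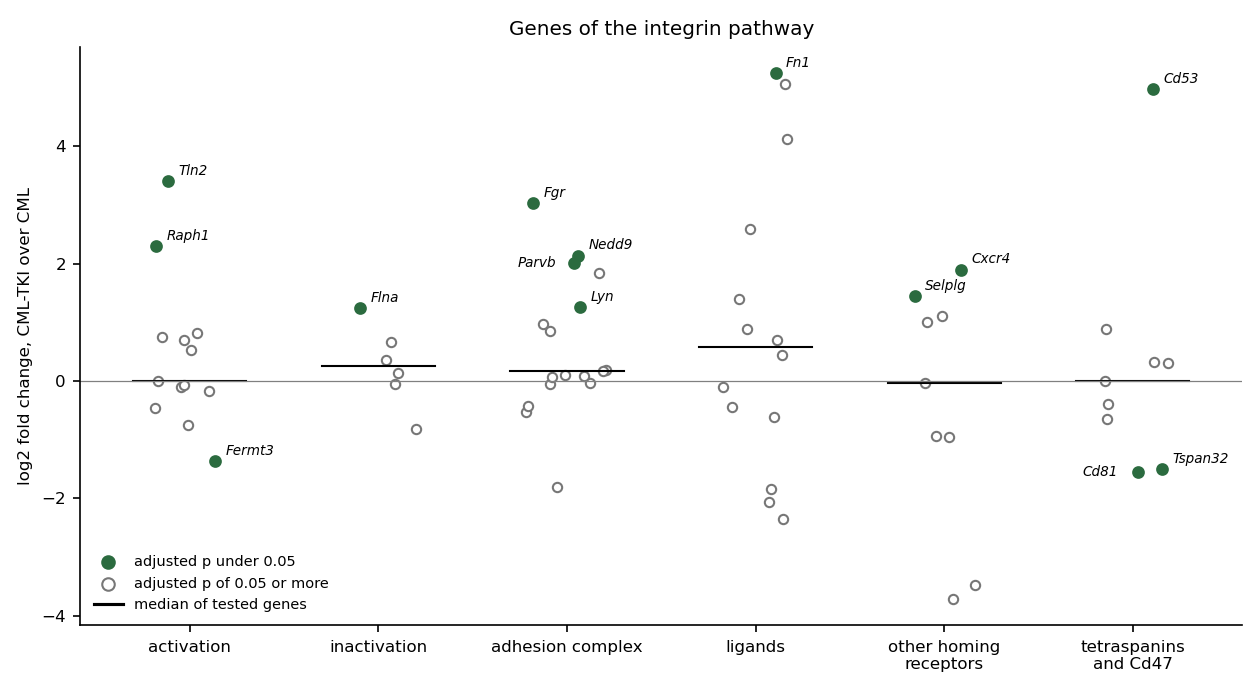
Log2 fold change (CML-TKI over CML, y axis) of each tested gene in 6 lists of the integrin pathway (x axis); filled and named points passed at an adjusted p under 0.05, and black lines are medians of the tested genes. Medians lie between -0.04 and 0.57 while single genes reach 5.24 (Fn1) and 4.97 (Cd53).

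**Figure D5:**
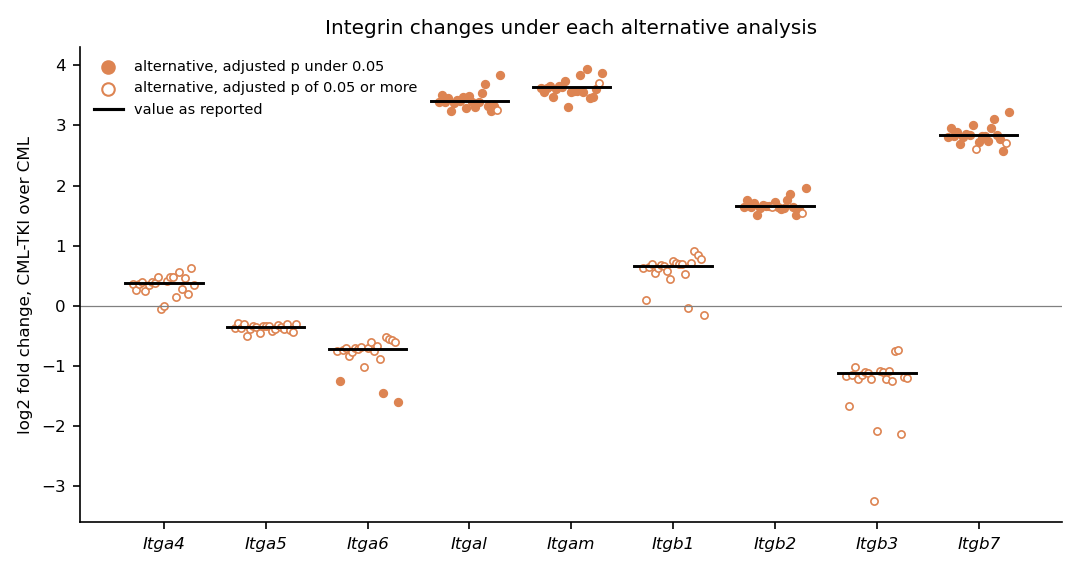
Log2 fold change (CML-TKI over CML, y axis) of the 9 tested integrin genes (x axis) as reported (black line) and under each of 21 alternative analyses (points, filled where the adjusted p is under 0.05). The 4 genes that rose stayed above 1.5 in all 21, Itga6 was filled in 3, and Itga4 and Itgb1 were negative in 2 each.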

How the data were processed

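Bulk RNA-seq of LSCs was analysed in 4 CML and 4 CML-TKI libraries. The authors extracted RNA (RNeasy Plus mini kit), made libraries by the Nextera XT protocol, which does not mark strand, aligned paired reads to mm10 with STAR (2.6.1d in the submitters' processing notes, which also name Partek 8.0) and quantified them to RefSeq transcripts. They deposited estimated counts per gene, without normalization. Of the values of a library, 8.32% to 22.1% were not whole, and they were rounded. The labels number the CML libraries 1 to 4 but the columns 1, 2, 3 and 5, so CML 5 entered the CML group with no label number. Rn45s, a ribosomal RNA, held 20.2% to 38.3% of counts in CML and 9.23% to 22.5% in CML-TKI libraries.

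edgeR 4.0.16 (R 4.3.3) was run with TMM scaling and its filter on low counts (filterByExpr, minimum count 10 and total 15), which left 11937 genes for the robust quasi-likelihood test. P-values were adjusted over all of these by the Benjamini-Hochberg method and read at 0.05. A standard error is the size of the log2 fold change over the square root of F. CPM use TMM-scaled library sizes, and log2 CPM a prior count of 2. The floor of 3 counts covers counting error only, since reads without molecular identifiers are not independent molecules. Lengths, strands and overlapping genes came from GENCODE vM21, and gene coordinates and promoters from RefSeq, both on GRCm38, the assembly of mm10.

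The 10 genes, the pathway and marker lists and the tests were chosen with earlier results of these data known. Named were all 10 genes, the genes past the threshold in each pathway list (at most 6), the sort markers, and the 3 genes most correlated with the integrin gene of smallest p in each direction. Tln1, Itgav, Itgad, Lama4, Lamb1, Vcam1, Icam1 and the single genes named from the cell type marker lists were named after their values were seen. Alternatives were DESeq2 1.42.0, limma-voom 3.58.1 with quality weights, other normalizations, filters, thresholds and choices of libraries. Of the genes first listed, 2 are not reported here and were left out of the lists' counts and medians. The other experiments of the series were not used here.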

Additional observations from a re-analysis of the deposited data

Results flagged for a closer look

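Each of the 10 integrin genes was examined for a library lying apart from the rest of its group, by Dixon's ratio of its gap to the group's range at the 95% level. Chance marks about 1 in 20 groups, and 6 of 20 were marked here, 1 of them (Itgax) on a single count, where the ratio is at its limit by construction and says nothing. In the CML-TKI group, Itga6 was at 337.7 CPM in CML-TKI 1 and at 81.8 to 104.3 CPM in the other 3. In the CML group, CML 5 stood apart in Itgb1 (173.2 CPM, others 258.7 to 263.8) and Itgb2 (59.8 CPM, others 44.97 to 46.96). CML 3 stood apart in Itgam (17.4 CPM, others 10.4 to 10.8), in Itgb3 (172.9 CPM, others 228.9 to 231.1) and in Itgax, where a single count gave 0.193 CPM and the other CML libraries were at 0.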

How the results depend on the processing

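The 4 rises kept their direction in all 21 alternatives. Their count was 4 with any 1 library left out and without CML 5 and CML-TKI 1, but 0 with CML 1, 2 and 3 summed. The count of lower integrin genes was 0 to 1 with 1 library left out, the 1 being Itga6 without CML-TKI 1, and 1 with limma-voom and without CML 5 and CML-TKI 1 (Itga6 at -1.61, adjusted p = 0.00169). Itgb1 ranged from -0.033 (without CML-TKI 1) to 0.91 with 1 library left out and was -0.16 without both. Over all genes the 1220 calls became 2420 with DESeq2, 2563 with limma-voom, 122 with CML 1 to 3 summed, 2361 without CML 5 and CML-TKI 1, 1958 at 0.1 and 395 at 0.01. Leaving out 1 library gave 505 (without CML 1) to 2504 (without CML-TKI 1), with 552, 570 and 808 without CML 2, 3 and 5. Scaling to totals without Rn45s moved the median of all genes to -0.14 and the split from 751 higher and 469 lower to 601 and 586. The causes were not tested.

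The labels do not say whether libraries with the same number are paired. Deviations from the group mean correlated at -0.042, 0.097 and 0.093 between libraries numbered 1, 2 and 3. CML-TKI 1 correlated better with CML 3, at 0.099, whereas CML-TKI 2 and CML-TKI 3 correlated best with the CML library of their own number. These values, from few and partly very similar libraries, cannot decide whether the libraries are paired. With the replicate block on libraries 1 to 3, 193 genes and 2 integrin genes passed (Itgal and Itgam), Itgb2 was at 1.64 (adjusted p = 0.0845), Itgb7 at 2.6 (adjusted p = 0.0594) Itgb3 at -3.25 (adjusted p = 0.165) and Itga4 reversed to -0.062. The same 6 libraries without the block gave 589 genes, all 4 integrin rises (Itgb2 adjusted p = 0.039, Itgb7 0.0235), -2.08 for Itgb3 and -0.0069 for Itga4.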
